A study of Mus musculus with 5 samples.

Results

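The internal coding exons of mouse genes were compared with the intron next to them in whole-genome bisulfite data of acute myeloid leukemia (AML) with and without Tet2. An exon was taken from the GENCODE M21 annotation of GRCm38 if it belonged to a transcript of a protein-coding autosomal gene, held coding sequence, was neither first nor last in any transcript of a protein-coding gene, and lay over 2 kb from every annotated transcription start site (TSS). Overlapping exons of a gene were merged, which left 86392 exons of 12659 genes. Each was set against up to 500 bp of intron on either side. Calls were pooled per gene, and 8540 genes (67.5% of those with such an exon) had at least 20 calls in every library in both parts. A call is 1 read that reports a cytosine of a CpG as methylated or unmethylated, and both strands of a CpG were added. The 8540 genes held 295958 exonic and 598623 intronic CpGs, of 20383623 CpGs on the autosomes. The other 4119 genes had too few calls and entered no value below.

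Methylation inside transcribed genes is laid down mainly by DNMT3A and DNMT3B, whose PWWP domains bind histone H3 methylated at lysine 36. SETD2 adds a form of this mark behind elongating RNA polymerase II. Exons carry more nucleosomes and more of this mark than introns, and their DNA is richer in CpG because codons constrain its loss. TET2 oxidises 5-methylcytosine to 5-hydroxymethylcytosine and further, a step towards demethylation. Bisulfite sequencing reads 5-methylcytosine and 5-hydroxymethylcytosine alike, so every level here is their sum.

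The 5 libraries were AML blasts from bone marrow of separate transplanted mice, with the strain labelled C57BL/6. All carried Cebpa-/p30, that is, 1 deleted Cebpa allele and 1 allele that makes only the short p30 isoform of this myeloid transcription factor. Libraries 23 and 24 were Cebpa-/p30 Tet2+/+, and libraries 5, 7 and 8 were Cebpa-/p30 Tet2-/-. Per the study's methods, donor marrow with floxed alleles and Mx1-Cre, from C57BL/6J donors, was transplanted into irradiated C57BL/6J.SJL recipients, recombination was induced with poly(I:C), and CD45.2+ CD3- B220- Ter119- cells were sorted from moribund mice. Ages are not given in the labels used here. Libraries are separate mice, and a change within cells cannot be told apart from a change in the mix of sorted cells.

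Depth ran from 3.0 to 5.27 calls per autosomal CpG, lowest in Tet2-/- library 8 and highest in Tet2-/- library 7. The level over all autosomal CpGs was 67.3% and 62.3% in the Tet2+/+ libraries and 70.9%, 74.8% and 68.4% in the Tet2-/- libraries. Mitochondrial cytosines, which serve as a gauge of failed conversion, read as methylated in 0.807% to 0.989% of calls. The last coding exon of Tet2 (chromosome 3, 133466740 to 133468190, 27 CpGs) had 83 and 111 calls in the Tet2+/+ libraries and 0 in each Tet2-/- library, so this gene bears out the labels. In the 8540 genes, the internal exons had a median length of 125 bp, and 99.8% followed an AG acceptor and 99.0% preceded a GT donor. They held 2.61 CpGs per 100 bp against 0.885 in the intron flanks, and 50.9% of their bases were G or C against 43.9%.

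Some exons of the genes described below, none over 300 bp, are printed here, 5′ to 3′ on the coding strand, from RefSeq's GRCm38.p6 genome, in lower case with each CpG in capitals. The first set was at or under 41.7% in the Tet2+/+ libraries and at or above 77.3% in the Tet2-/- libraries. It holds exons of Jdp2 (chr12:85631645-85631749, plus strand), Treml1 (chr17:48364859-48365012, plus strand), Eppin (chr2:164589314-164589481, minus strand) and Pglyrp2 (chr17:32415806-32416103, minus strand).
Jdp2: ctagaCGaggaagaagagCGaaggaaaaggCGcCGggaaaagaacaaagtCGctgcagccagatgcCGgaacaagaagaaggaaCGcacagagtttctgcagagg
Treml1: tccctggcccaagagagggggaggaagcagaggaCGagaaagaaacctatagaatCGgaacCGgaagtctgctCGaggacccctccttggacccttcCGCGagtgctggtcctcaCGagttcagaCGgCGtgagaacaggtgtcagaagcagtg
Eppin: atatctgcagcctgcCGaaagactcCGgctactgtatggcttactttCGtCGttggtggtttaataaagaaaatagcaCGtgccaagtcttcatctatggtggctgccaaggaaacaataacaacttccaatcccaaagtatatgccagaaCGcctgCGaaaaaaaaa
Pglyrp2: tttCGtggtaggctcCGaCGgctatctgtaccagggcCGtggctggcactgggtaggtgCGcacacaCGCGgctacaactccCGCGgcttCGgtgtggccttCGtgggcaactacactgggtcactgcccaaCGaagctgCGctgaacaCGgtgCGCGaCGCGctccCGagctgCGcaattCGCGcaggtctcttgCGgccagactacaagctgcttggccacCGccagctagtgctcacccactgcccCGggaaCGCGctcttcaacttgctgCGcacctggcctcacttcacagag

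The second set stayed at or under 5.77% in every library beside flanks of higher level, 47.5% to 74.2% for Nptxr and 20% to 53.6% for Trim11. It holds an exon of Nptxr (chr15:79794256-79794475, minus strand) and an exon of Trim11 (chr11:58981993-58982223, plus strand).
Nptxr: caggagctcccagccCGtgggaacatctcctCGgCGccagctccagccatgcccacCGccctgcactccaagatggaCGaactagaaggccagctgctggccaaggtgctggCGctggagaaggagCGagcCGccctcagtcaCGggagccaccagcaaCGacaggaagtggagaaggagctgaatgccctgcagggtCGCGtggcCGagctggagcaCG
Trim11: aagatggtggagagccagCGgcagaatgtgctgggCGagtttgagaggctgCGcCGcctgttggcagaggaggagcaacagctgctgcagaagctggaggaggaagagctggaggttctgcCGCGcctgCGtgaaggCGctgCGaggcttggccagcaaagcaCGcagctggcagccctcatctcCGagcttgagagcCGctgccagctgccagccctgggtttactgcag

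The last sequence, an exon of Grap2 (chr15:80643645-80643810, plus strand), was at 68.3% to 94.8% beside flanks at 44.2% to 71.1%.
Grap2: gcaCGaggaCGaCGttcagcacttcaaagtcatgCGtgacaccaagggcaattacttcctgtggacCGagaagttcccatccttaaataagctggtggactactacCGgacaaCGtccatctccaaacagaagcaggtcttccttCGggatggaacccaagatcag

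The first question was whether internal exons and their flanking introns differ, and whether Tet2 changes both alike. Exons were methylated at 79.1% and 74.3% in the Tet2+/+ libraries 23 and 24, and at 83.5%, 87.9% and 82.3% in the Tet2-/- libraries 5, 7 and 8. The flanks stood at 77.4% and 72.9%, and at 81.5%, 86.6% and 80.3%. Exons were above introns in 5 of 5 libraries, by 1.74, 1.43, 2.04, 1.31 and 1.97 percentage points in the same order. The mean excess was 1.70 ± 0.324 points (SD, n = 5; exact sign-flip test, two-sided, p = 0.063, the smallest that 5 libraries allow). At equal local CpG density the excess was 2.94 points in Tet2+/+ and 2.63 in Tet2-/- leukemia, against 1.58 and 1.77 as measured.

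**Figure D1:**
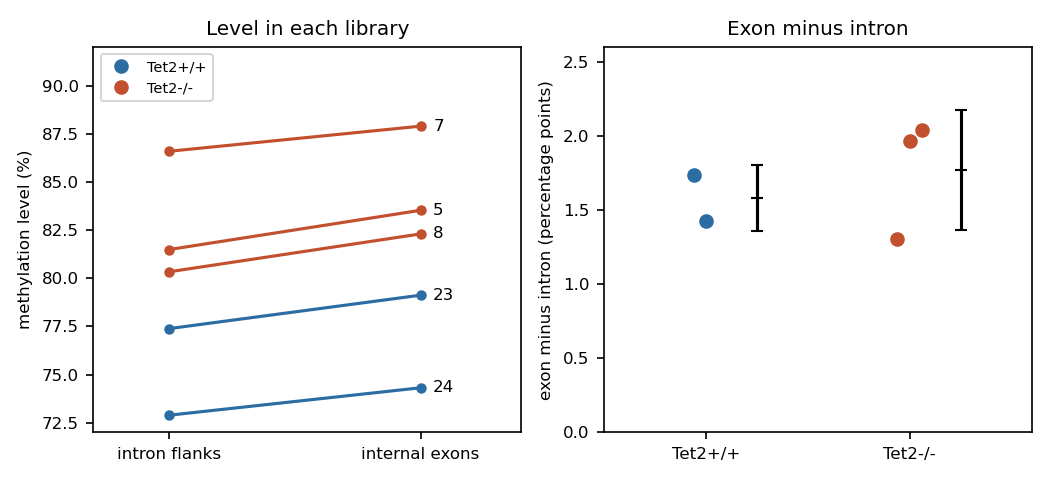
Left, methylation level (%) of internal exons and intron flanks, 1 line per library with its number; right, exon minus intron (percentage points) per library, with mean and SD of each genotype. Every line rises towards the exon, and the differences of the genotypes, 1.43 to 1.74 and 1.31 to 2.04, overlap.

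Between genotypes the shift was far larger than the exon excess. The mean exon level was 76.7% (SD 3.4, 2 libraries) with Tet2 and 84.6% (SD 2.94, 3 libraries) without it. It differed by 7.85 points and the groups did not overlap (exact permutation test, two-sided, p = 0.1, the smallest possible for 2 against 3 libraries). Introns averaged 75.1% ± 3.18 and 82.8% ± 3.33, a difference of 7.66 points (exact permutation p = 0.1). The unmethylated share of calls was 33.7% smaller in Tet2-/- exons and 30.8% smaller in Tet2-/- introns. The exon excess itself was 1.58 ± 0.220 points in Tet2+/+ and 1.77 ± 0.405 in Tet2-/- libraries, which differed by less than the spread between libraries (0.191 points, exact permutation p = 0.6). It was 0.0354 points without library 24, 0.0561 without 5, 0.0923 without 8, 0.346 without 23 and 0.424 without 7. That small difference turned to -0.129 with flanks of 200 bp and to -0.305 when exons and introns were compared at equal local CpG density.

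Against other places over 2 kb from a TSS, internal exons were the more methylated ones, and their intron flanks were above these places too. The flanks averaged 79.7% over the 5 libraries, against 75.7% in the remaining introns of protein-coding genes, 77.4% in last exons and 70.4% between genes. Internal exons stood 5.77 ± 0.731 points above the remaining introns, 4.06 ± 0.334 above last exons and 11 ± 1.16 above DNA between genes (SD, n = 5). Each of these held in 5 of 5 libraries (exact sign-flip p = 0.063). CpGs within 2 kb of a TSS lay 30.2 ± 2.46 points below internal exons. The difference between genotypes was 7.33 points in the remaining introns, 7.47 in last exons and 7.67 between genes, and the test of each against the 7.85 points of internal exons gave p = 0.3 to 1 (exact permutation over libraries). Near a TSS it was 4.24 points, and there the gap to internal exons was wider in all 3 Tet2-/- than in both Tet2+/+ libraries (3.62 points, exact permutation p = 0.1, 0.26 after Benjamini-Hochberg adjustment over 13 tests).

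Levels were higher in the exon than just before its acceptor, and close to each other on both sides of the donor. In exons of at least 100 bp with a single annotated form, the last 25 bp of intron before the acceptor stood at 76.2% and 71.2% in Tet2+/+ and at 81.3%, 85.7% and 80.1% in Tet2-/- libraries. The first 25 bp of exon stood at 78.1% and 73.2%, and at 82.6%, 87.3% and 81.3%. On the donor side the last 25 bp of exon were at 79.5% and 74.5%, and at 83.7%, 88.3% and 82.4%, and the first 25 bp of the following intron were nearly as high, at 79.2% and 74.3%, and at 83.4%, 87.9% and 82.1%. Over all exons, the 50 bp after an exon were 1.71 ± 0.492 points above the 50 bp before it (SD, n = 5, higher in 5 of 5, exact sign-flip p = 0.063). The exon exceeded the 50 bp before it by 2.30 ± 0.432 points and the 50 bp after it by 0.585 ± 0.146 points.

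**Figure D2:**
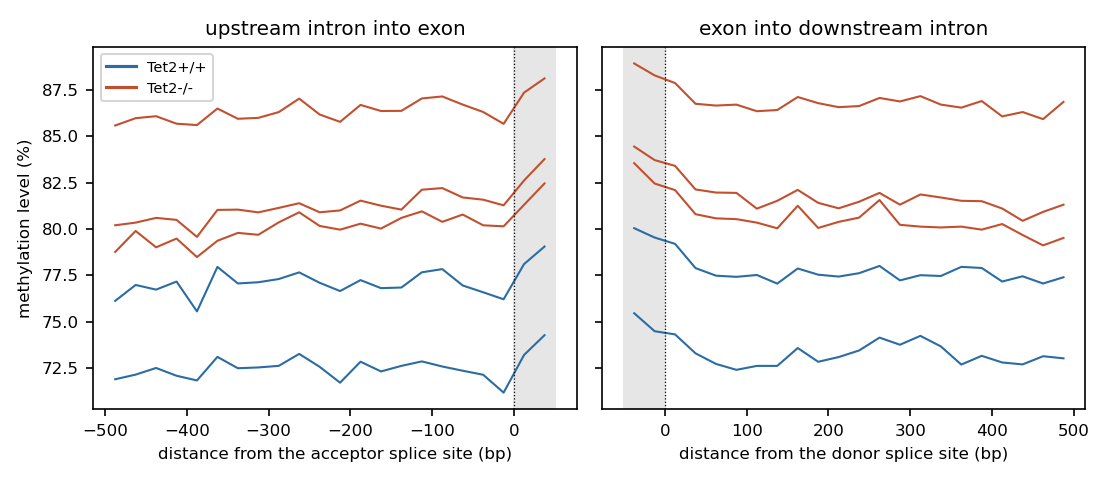
Methylation level (%) in bins of 25 bp against the distance (bp) from the acceptor (left) and donor (right) splice site, 1 line per library, with the first and last 50 bp of the exon shaded. In each library the level rises from the last 25 bp of intron over the first 50 bp of exon, and falls from the last 50 bp of exon over the first 50 bp of intron.

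The exon excess depended on how CpG-rich the surroundings were. CpGs were sorted by the number of CpGs within 100 bp on each side, counting themselves. At lone CpGs, 2.69% of exonic and 12% of intronic CpGs, exon minus intron was 0.197 and 0.622 points in Tet2+/+ and -0.137, -0.572 and -0.300 points in Tet2-/- libraries. From 2 CpGs up, exons were higher in 5 of 5 libraries in each class, by 1.04 ± 0.374 points at 2 CpGs, 2.46 ± 0.334 at 5 and 2.86 ± 0.348 at 8 to 10. With 11 to 15 CpGs, exons were at 73.3% in Tet2+/+ and 82.4% in Tet2-/-, while introns were at 65.7% and 73.8%, a gap of 8.21 ± 0.978 points. At 16 or more both parts were mostly unmethylated, and the gap of 10.8 ± 4 points varied most between libraries, with exons at 38.4% and 45.4% and introns at 27.6% and 34.7%. The gap at 11 to 15 CpGs was 8.24 ± 1.37 points wider than at lone CpGs (exact sign-flip p = 0.063). Exon levels were 0.883 ± 2.01 points higher at 11 to 15 CpGs (4 of 5 libraries, exact sign-flip p = 0.312), and intron levels were 7.36 ± 1.77 points lower at 11 to 15 CpGs in 5 of 5.

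**Figure D3:**
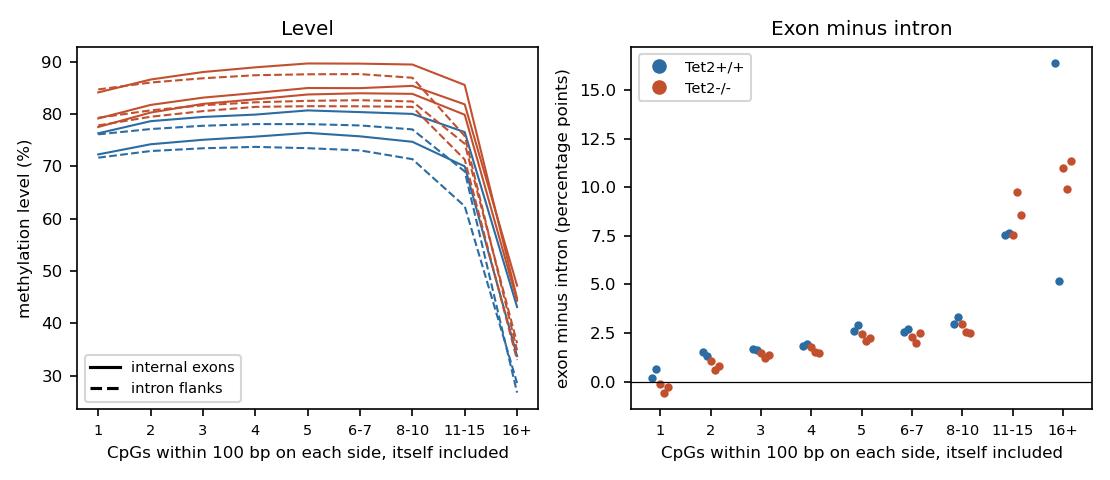
Left, level (%) of internal exons (solid) and intron flanks (dashed) in each library by the number of CpGs within 100 bp on each side; right, exon minus intron (percentage points), 1 point per library. The difference climbs from about 0 at lone CpGs to 7.52 to 9.77 points at 11 to 15 CpGs.

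Levels also differed with the bases beside the CpG. Where both neighbours were A or T, exons were at 70.8% in Tet2+/+ and 80.6% in Tet2-/-, and where both were C or G they were at 80.5% and 86.7%. The exon excess was 2.17 ± 0.455 points in the first case and 0.511 ± 0.359 in the second, smaller by 1.65 ± 0.230 points (5 of 5 libraries, exact sign-flip p = 0.063). These classes were chosen after the data were seen.

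Within exons the level followed the reading frame. CpGs with the C at codon position 1, of which CGN arginine codons are made, were at 80.8% and 76.4% in Tet2+/+ and at 84.6%, 89.0% and 83.6% in Tet2-/- libraries. With the C at position 2 the levels were 79.6% and 74.5%, and 83.6%, 88.0% and 82.6%. With the C at position 3, where the CpG spans 2 codons, they were 77.8% and 72.8%, and 82.8%, 87.2% and 81.4%. Position 1 exceeded position 3 by 2.46 ± 0.800 points in 5 of 5 libraries (exact sign-flip p = 0.063). At equal local CpG density and equal neighbouring bases the excess was 0.903 ± 0.312 points, still in 5 of 5, and position 2 no longer stood apart from position 3 (0.166 ± 0.224 points, higher in 4 of 5). The genotype difference ran the other way, 7.12 points at position 1, 7.68 at position 2 and 8.49 at position 3. The excess of position 1 over position 3 was smaller in Tet2-/- (1.91 points) than in Tet2+/+ libraries (3.29 points), without overlap (exact permutation p = 0.1, 0.229 after Benjamini-Hochberg adjustment over 32 contrasts). At equal density and neighbouring bases it was 0.692 points in Tet2-/- and 1.22 in Tet2+/+ libraries.

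Exon length, place in the transcript and annotated splicing were compared in the same way. The excess over introns was 1.28 ± 0.141 points for exons under 80 bp, 2.10 ± 0.176 from 80 to under 120 bp, 2.29 ± 0.327 from 120 to under 160 bp, 1.70 ± 0.291 from 160 to under 250 bp and 1.71 ± 0.574 for 250 bp and more. The class from 80 to under 120 bp exceeded that under 80 bp by 0.823 ± 0.0875 points in 5 of 5 libraries (exact sign-flip p = 0.063). With each transcript cut into 3 parts, the excess was 1.56 ± 0.421 points in the most 5′ and 1.96 ± 0.333 in the most 3′ part, higher in the latter in 5 of 5. Constitutive exons, included in every transcript that spans them, had an excess of 1.68 ± 0.321 points (71099 exons) and exons skipped by an annotated transcript one of 1.69 ± 0.374 points (4589 exons). The difference between these, 0.0103 ± 0.251 points with a range over libraries of -0.279 to 0.399, was within the spread between libraries.

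Gene by gene, the direction was mixed. The mean exon-intron difference over the 5 libraries had a median of 2.36 points, with 5% of genes under -12.3 and 5% over 16.6, and exons were above introns in 68.8% of genes. Exons were above introns in all 5 libraries in 2752 genes (32.2%) and below in all 5 in 810 (9.48%). With edgeR's quasi-likelihood test and Benjamini-Hochberg adjustment over the 8540 genes at 0.05, exons were higher in 2730 genes (32.0%) and lower in 859 (10.1%). Exons were thus the higher part in 76.1% of calls, and in 71.9% with limma. When each library's median difference was also subtracted before limma, the share was 48.0% (1168 against 1263 genes), a balance that the centring itself sets. The genes with lower exons had a median exon level of 58.0% and intron level of 76.4% in Tet2+/+ leukemia, those with higher exons 83.3% and 70.5%.

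Calls were pooled per gene, so where exons of a gene differ, the exonic and the intronic calls can come mainly from different places. The largest excess of exons, as a mean of all 5 libraries, was found in Enpp4, an ectonucleotide pyrophosphatase, with exons at 77.8% and 64.6% in Tet2+/+ and 90.8%, 96.4% and 81.3% in Tet2-/- libraries, and introns at 37.5% and 40%, and 21.6%, 40.5% and 18%. Its mean difference was 50.7 ± 18.1 points (SD, n = 5; edgeR adjusted p = 1.68e-11), with 32.5 in Tet2+/+ and 62.8 in Tet2-/- leukemia, and it is one of the genes below whose difference changed (edgeR adjusted p = 0.0121). Among the genes of this paragraph, Selenon (43.3 points), Zer1 (39.1) and Grap2 (35.1) were above it in Tet2+/+ alone. So were other genes, such as Setbp1 (42.8 points). The 858 bp exon of Enpp4, with 90.2% of exonic calls, is not wholly coding. It had flanks at 73.3% to 100%, on 6 to 21 calls. The low flanks, at 10.6% to 28.1%, lay beside the 171 bp exon of Enpp4, which had 8 to 14 calls. Selenon, which encodes the endoplasmic reticulum selenoprotein N, had exons at 83.6% and 80%, and 82.6%, 85.6% and 86.3%, and introns at 46.5% and 30.4%, and 39.5%, 54.1% and 42.9% (edgeR adjusted p = 3.71e-13). Of its 5 exons the one nearest the start of the gene stood apart at 6.67%, 0%, 0%, 18.5% and 53.8%, with as few as 13 calls, and its flanks were at 14.3% to 34.2%. The 125 bp exon between others of high level was at 88.4% to 96.9% beside flanks at 85.2% to 96.6%, so the pooled excess of Selenon did not hold at each exon. Mucl3, a mucin-like gene, Grap2, the T-cell adaptor GADS, and Zer1, which recognises N-terminal glycine for degradation, followed with differences of 38.7, 35.2 and 34.8 points. In Zer1 it was -2.63 points without the exon that is not wholly coding and its flanks, which were at 10% to 21.2%. In Grap2 it was 20.2 points with flanks of 200 bp.

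At the other end, Nptxr, a neuronal pentraxin receptor, had its exon at 3.70%, 2.08%, 2.86%, 3.78% and 5.77% in libraries 23, 24, 5, 7 and 8, over 81 to 185 calls. Its introns were at 53.7% and 47.5%, and 66.7%, 72.8% and 74.2%, where all Tet2-/- were above all Tet2+/+ libraries, while the exon levels overlapped. Neither part passed the genotype test (edgeR adjusted p = 0.718 for exons and 0.106 for introns). Trim11, a ubiquitin ligase, had pooled exons at 16.3% to 21.5% and pooled introns at 67.7% to 83.6%. Its 231 bp exon with 81.1% of the exonic calls, at 0% to 4.49%, had flanks at 20% to 53.6%. Its other exons were at 75% to 100%, on at most 18 calls each per library, and that of 48 bp had no call in library 23. Ppard, a fatty acid-sensing nuclear receptor, had exons at 14.3% to 20.9% and introns at 65.3% to 83.9%. Exons were below introns by 59.3 ± 10.9 points in Nptxr, 54.6 ± 4.50 in Trim11 and 56.3 ± 10.3 in Ppard. With flanks of 200 bp the difference was -38.1 points in Nptxr and -27.9 in Ppard, and in Ppard it was -24.9 under a looser definition of terminal exons. Sobp had a difference of -55.1 ± 6.59 points, of which 1 exon of 1937 bp held 93.5% of the exonic calls, at 12.6% to 27.2%. Without exons that are not wholly coding, which leaves this one out, its difference was 9.61 points. Tmem108, a neuronal membrane protein, had its 1407 bp exon at 9.93% and 26.7% in Tet2+/+ and 40%, 58.9% and 52.9% in Tet2-/- libraries beside introns at 87.9% to 95.2%.

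**Figure D4:**
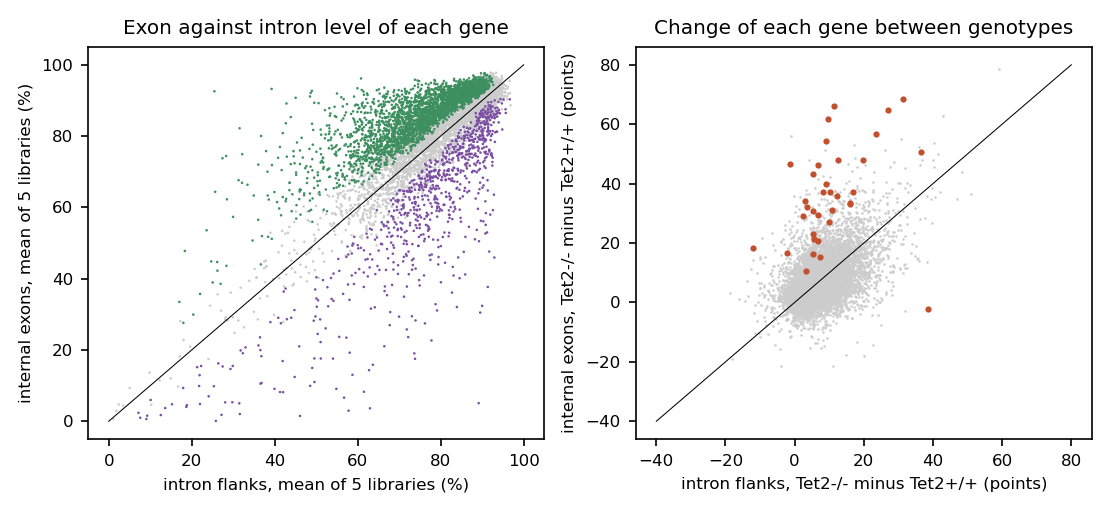
Left, exon against intron level (%) of the 8540 genes, mean of 5 libraries, with genes past the edgeR test in green (2730, exons higher) and purple (859, exons lower). Right, Tet2-/- minus Tet2+/+ (percentage points) in exons against introns, with the 35 genes whose exon-intron difference changed in red, 34 of them above the diagonal.

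Between genotypes, exons gained methylation in 626 genes (7.33%) and lost it in 1 (0.0117%) by the same test. Introns gained in 431 genes (5.05%) and lost in 0 (0.0%), with 2211 genes at an unadjusted p under 0.05 in either direction and 374 gains and 0 losses by limma. Of the 627 and 431 genes, 178 were called in both parts, 28.4% of the first and 41.3% of the second. All Tet2-/- exceeded all Tet2+/+ libraries in exons of 3828 genes (44.8%) and introns of 4347 (50.9%), against 85 (0.995%) and 39 (0.457%) the other way. The counts changed when single libraries were left out. Leaving out a Tet2+/+ library leaves 1, which is then assumed to vary like the Tet2-/- libraries, so fewer calls do not show that the differences go away. Without library 24, the least methylated, 26 genes were called in exons and 4 in introns, and without library 23 the counts were 198 and 76. Exon calls were 398 without library 5, and intron calls were 236 without library 8 and 714 without library 7. After the median of each library was subtracted, limma called 3 and 1.

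The largest exon gain was in Jdp2, which encodes a repressor that dimerises with Jun, in the exon printed above. It stood at 5.13% and 21.1% in Tet2+/+ and at 88.6%, 91.7% and 95% in Tet2-/- libraries, over 35 to 48 calls, a gain of 78.7 points (edgeR adjusted p = 5.34e-10). Under the looser definition of terminal exons it was 38.2 points, below Treml1 and Pglyrp2, and with library medians subtracted limma gave an adjusted p of 0.0552. Its introns went along, from 21.0% and 41.5% to 82.3%, 92.3% and 96.6%, a gain of 59.2 points (edgeR adjusted p = 5.23e-08). Exons of Pglyrp2, an amidase that cleaves bacterial peptidoglycan, were at 21.3% and 18.7%, and at 81.3%, 96.3% and 88.0%, a gain of 68.5 points (edgeR adjusted p = 4.39e-13). The 298 bp exon printed above held 85.2% of these calls and was at 15.8% and 6.15%, and at 77.3%, 96.6% and 84.2%, while the other exon was at 84% to 100% throughout. The flanks of the 298 bp exon alone were at 15.4% and 23.3%, and at 48.4%, 87.7% and 64.5%. The single loss was in Ccdc124, a ribosome-associated protein, from 7.08% and 1.01% to 0%, 0.606% and 0%, and it did not hold. It was -0.808 points without library 23 and 3.99 under the looser definition of terminal exons, and its call was lost in 7 of 16 alternatives.

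The last question was where exons and introns of a gene changed unequally. The exon-intron difference rose in 34 genes (0.398%) and fell in 1 (0.0117%), and in each of these 35 genes the genotypes did not overlap. Over all genes, all Tet2-/- exceeded all Tet2+/+ libraries in this difference in 1144 genes (13.4%) and lay below them in 1327 (15.5%). The median change over all genes was -0.297 points. Thus the calls, unlike the ranks, leaned to 1 side. The test works on log ratios of methylated to unmethylated calls, so it does not select genes by the size of the change in points. In points, too, the difference rose in the 34 genes and fell in the 1, a lean not seen over all genes. In 27 of the 34, exons lay below introns in both Tet2+/+ libraries. The 34 were selected by a test on these same levels, so a low start of their exons is no separate evidence. The 34 had a median exon level of 52.1% in Tet2+/+ and 88.5% in Tet2-/- leukemia, and introns of 70.1% and 78.6%. Of the 35, 32 were also called for exon level and 6 for intron level, in tests that use the same counts. Over all genes, exon level was called higher in 7.33% and lower in 0.0117%, and intron level higher in 5.05%. Without library 24, or with limma, the count was 0 (548 and 701 genes at an unadjusted p under 0.05), the first with only 1 Tet2+/+ library left. The differences themselves were 46.2 points in Treml1, 49.1 in Eppin, 54.0 in Art1, 33.3 in Nfic and -33.0 in Scrn1 without library 24. Without library 23, which also leaves 1 Tet2+/+ library, they were 63.0, 55.0, 42.1, 57.2 and -48.0 points in the same order. The count was 65 without library 5 and 20 without library 7.

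Treml1, a receptor of the TREM family found on platelets and megakaryocytes, rose most. Its exons were at 35.7% and 20.3% in Tet2+/+ and at 93.3%, 93.2% and 95.7% in Tet2-/- libraries, and its introns at 73.6% and 75.0%, and 87.1%, 92.3% and 78.0%. The difference thus went from -46.3 to 8.25 points, a change of 54.6 (edgeR adjusted p = 0.00526). The 154 bp exon printed above held 85.7% of its exonic calls, at 28.3% and 11.9%, and at 95.9%, 93.8% and 100%. The flanks of that exon alone were at 35.5% and 31%, and at 90%, 82.5% and 54.5%, over 22 to 40 calls, so they were low in Tet2+/+ too, and the pooled introns were higher through the flanks of its other exons. Eppin, a protease inhibitor of the epididymis, had its exon at 41.7% and 4.35%, and at 81.5%, 94.9% and 77.8%, on 23 to 39 calls, with introns at 70.5% and 39.1%, and 61.7%, 69.2% and 62.5% (change of 52.0 points, edgeR adjusted p = 0.0114, and 49.3 points with an edgeR adjusted p of 0.0516 without library 7). In both genes the exon printed above was thus lower in both Tet2+/+ than in all Tet2-/- libraries. The 53 bp exon of Treml1, on 7 to 11 calls, was at 80% and 100%, and at 81.8%, 87.5% and 85.7%.

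Art1, an ADP-ribosyltransferase of the cell surface, had exons at 32.9% and 45.2%, and at 83.7%, 94.1% and 79.3%, while its introns were at 87.5% and 87.9%, and 79.4%, 94.1% and 85.4%, and showed no genotype difference past the test (edgeR adjusted p = 0.897). An exon of 766 bp (chromosome 7, 102106667 to 102107432) held 96.6% of its exonic calls, and its own flanks were at 80% to 90.4%. In Nfic, a transcription factor of the nuclear factor I family, exons were at 44.8% and 11.6%, and at 82.2%, 86.4% and 79.3%, and introns at 70.1% and 60.9%, and 74.9%, 80.3% and 69.0% (change of 45.2 points, edgeR adjusted p = 5.47e-05, and 28.3 points with flanks of 200 bp). Its 3 exons behaved differently. The one of 532 bp (chromosome 10, 81420267 to 81420798) was at 46.6% and 7.02%, and at 94.5%, 96.7% and 96.5%, beside flanks at 72.1% and 37%, and at 79.1%, 93.7% and 88.5%. The one of 185 bp (chromosome 10, 81404824 to 81405008) was at 0% to 18.8% in all libraries, and the one of 77 bp (chromosome 10, 81403352 to 81403428) at 84.6% to 100%. The genotypes were thus apart in the 532 bp exon and overlapped in the other two.

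Scrn1, which encodes secernin 1, was the single gene to fall. Its pooled exons were at 63.6% and 62.5%, and at 63.1%, 63.6% and 56.2%, and its introns rose from 51.0% and 34.9% to 88.5%, 77.4% and 78.3% (edgeR adjusted p = 0.000483), so that the difference changed by -40.5 points (edgeR adjusted p = 0.0288). It was -18.3 points under the looser definition of terminal exons (edgeR adjusted p = 0.217), and the call was also lost without library 23 (0.0751) and without library 5 (0.0831). Its exon of 203 bp was at 78.6% and 83.3%, and at 57.1%, 52.4% and 62.5%, on 8 to 21 calls, and that of 160 bp at 56.7% and 53.6%, and at 64.7%, 67.2% and 54.2%. Further genes past the test were Mmp2, a matrix metalloprotease, at 30.9 points, Acbd3, a Golgi protein, at 39.3, Prom1, the stem cell surface protein CD133, at 27.1, Kat6a, a histone acetyltransferase rearranged in AML, at 11.1, and Lrp1, a scavenger receptor of macrophages, at 7.88 points.

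**Figure D5:**
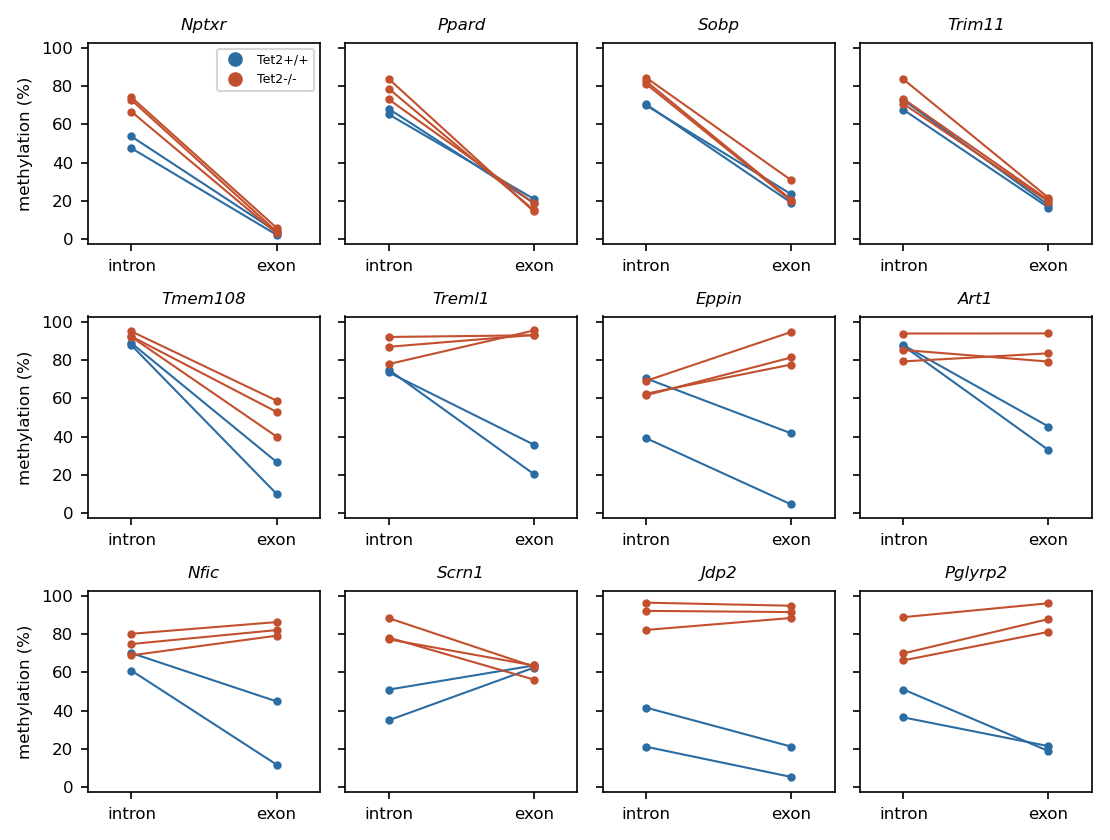
Methylation (%) of intron flanks and internal exons in each library for 12 genes, 1 line per library in the colour of its genotype. In Nptxr, Ppard, Sobp and Trim11 every line falls steeply to the exon, and in Treml1, Eppin, Art1, Nfic and Pglyrp2 the lines of the 2 Tet2+/+ libraries fall while those of the 3 Tet2-/- libraries end high.

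Of the pathway's own genes, Setd2 had too few calls to be tested. Tet3 had exons above introns by 5.26 ± 2.94 points (edgeR adjusted p = 0.000559). Dnmt3b, a de novo methyltransferase, gained in both parts, with exons at 67.2% and 75.8%, and at 90%, 94.1% and 93.7% (edgeR adjusted p = 0.00313), and introns at 79.1% and 79.8%, and at 91.4%, 94.1% and 89.3% (edgeR adjusted p = 0.035). Exons of Dnmt1, the maintenance methyltransferase, were at 89.5% and 85.5%, and at 91.2%, 95.7% and 93.7%, those of Dnmt3a at 75.3% and 80.9%, and at 83.2%, 88.5% and 80.5%, and those of Tet1 at 78.8% and 86.3%, and at 94.1%, 96.3% and 88.2%, none of which passed a test. The 2 internal exons of Tet2 analysed were at 94.8% and 91.8%, and at 88%, 91.6% and 89.7%, and those of Uhrf1, which guides DNMT1, at 76.5% to 94.2%, without a call.

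Gene lists are described by counts of genes with exons higher and lower in the test above, which over all genes were 32.0% and 10.1%. For synapse and neuronal channel genes the median difference was 6.10 points, with exons higher in 31 and lower in 4 of 56 genes tested (55.4% higher), for sarcomere genes 5.83 points (24 and 2 of 35, 68.6% higher) and for collagens 4.93 points (22 and 3 of 39, 56.4% higher), against 2.36 points over all genes. The introns of these lists had median levels of 65.6%, 68.4% and 67.9% in Tet2+/+ leukemia, against 78.7% over all genes. Nrxn2, a synaptic adhesion protein, had an excess of 24.6 points, Myh7, the slow myosin heavy chain, 25.4, and Col4a1, a basement membrane collagen, 15.2. For housekeeping and chromatin lists the median was -0.567 points for proteasome and chaperonin subunits (1 and 0 of 14), 0.495 for replication and cell cycle genes (7 and 3 of 38), 1.32 for the spliceosome (7 and 3 of 39), 0.597 for H3K36 methylation and elongation genes (6 and 0 of 25) and -0.301 for DNA methylation genes (1 and 0 of 12).

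Hematopoietic transcription factors had a median of 3.94 points (14 and 1 of 35), with Runx1 at 24.6 ± 1.13 points. Their median exon gain was 4.80 points, against 5.79 over all genes. Exon gains were called in 18.8% of lymphoid genes (3 of 16) and 17.6% of neutrophil and monocyte genes (3 of 17). In erythroid, mast cell and basophil genes it was 0 of 15. Intron gains were called in 1 of the 16 lymphoid genes (6.25%), 2 of the 17 neutrophil and monocyte genes (11.8%) and 0 of the 15 erythroid, mast cell and basophil genes. Among the hematopoietic transcription factors intron gains were called in 4 of 35 genes, 11.4% against 5.05% over all genes. Exon gains were called there in 7 of 35 genes, 20% against 7.33% over all genes. One was Spi1, the myeloid regulator PU.1, with exons at 26.8% and 12.5% in Tet2+/+ and at 52.9%, 93.6% and 73.9% in Tet2-/- libraries (edgeR adjusted p = 0.000161), and introns at 4.76% and 20.7%, and 38.1%, 65.1% and 56% (edgeR adjusted p = 0.0058). Cytokine receptors and their kinases had a median of 2.6 points (15 and 1 of 31), with Kit, the stem cell factor receptor, at 15.9 points. Neutrophil and monocyte genes (3.66 points, 5 and 0 of 17, 29.4% higher), lymphoid genes (4.09, 6 and 0 of 16) and erythroid, mast cell and basophil genes (4.83, 8 and 2 of 15) followed. Among the last, Fcer1g, the shared gamma chain of Fc receptors, had exons below introns by 51.9 ± 10.7 points. Genes recurrently mutated in AML had 0.804 points (5 and 4 of 23) and chromatin remodelers 0.746 (12 and 5 of 58). Genes that the study lists as lower in RNA of Tet2-/- blasts had 2.34 points (32 and 13 of 93, 34.4% higher), with an exon gain in 10, and those listed as higher 1.47 points (8 and 4 of 30), with an exon gain in 3. The last 2 lists came from RNA of the same leukemia model and are no independent evidence. A changed exon-intron difference occurred in 3 of the 552 genes tested in any of the 17 lists, Kat6a, Bsn and Lrp1, 0.543% against 0.398% higher and 0.0117% lower over all genes.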

How the data were processed

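Whole-genome bisulfite libraries of 2 Tet2+/+ and 3 Tet2-/- leukemias were analysed. The authors deposited counts of methylated and unmethylated reads per cytosine from Bismark 0.19.1 with Bowtie2, after Trim Galore 0.4.3 and removal of duplicates by position, on GRCm38. Per the authors, DNA of sorted blasts was converted with bisulfite and amplified, so intervals of reads cover counting error only. Counts of both strands of a CpG were added. Exons came from GENCODE M21 and had to be over 2 kb from a TSS, with flanks of up to 500 bp. Genes needed 20 calls in each library and part.

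Levels are methylated calls over all calls, compared by exact permutation over the 10 genotype assignments or by exact sign flips over libraries. Genes were tested with edgeR 4.0.16 (quasi-likelihood, trended dispersion, R 4.3.3) on methylated and unmethylated counts, with Benjamini-Hochberg adjustment over all genes at 0.05. The test compares log ratios of these counts, while differences and changes are given in percentage points. limma 3.58.1 was an alternative. The edgeR test was also run on simulated calls with most genes unchanged between genotypes, unlike these data, so that run does not vouch for the counts here. Permutation and sign-flip p-values are shares of the possible assignments of these libraries. Those of edgeR use a dispersion trend shared over genes, so they do not measure a gene's own spread between mice alone. Python 3.11.15, numpy 2.4.6, scipy 1.17.1 and pandas 2.3.3 were used.

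Named genes were, in each direction, the 5 with the largest exon-intron difference (at least 50 calls per part and library), up to 4 with the largest change of it and up to 3 with the largest exon change, beside a fixed set of enzymes. Spi1, gene list examples and other genes of the last interaction paragraph were chosen after their values were seen. Members and gene lists were chosen with earlier results of these data known. Other flanks, filters, weights by CpG density, tests and left-out libraries were tried.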

Additional observations from a re-analysis of the deposited data

Results flagged for a closer look

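In 6 genes the exon-intron difference moved apart between the genotypes. All 6 passed edgeR's test, which compares log ratios of methylated to unmethylated calls and not points. Exons changed relative to introns by 54.6 points in Treml1, 52.0 in Eppin, 48.0 in Art1 and 45.2 in Nfic, and by -40.5 in Scrn1. In Pglyrp2 exons lay below introns in both Tet2+/+ libraries and above them in all 3 Tet2-/- libraries, a change of 37.1 points (edgeR adjusted p = 0.0121). The first 4 and Scrn1 were chosen for the size of the change. Without library 24, which leaves 1 Tet2+/+ library, or with limma no gene passed this test, while without library 24 the changes of the first 4 genes were still 33.3 to 54.0 points and that of Scrn1 -33.0. The introns are pooled over all flanks of a gene, and beside the printed exons of Treml1 and Pglyrp2 they were low in Tet2+/+ too.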

How the results depend on the processing

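Of the pooled levels, the genotype differences of exons and of introns kept their direction in every alternative tried. They were 10.3 and 9.91 points without library 23 and 5.45 and 5.42 without library 24. The exon excess in Tet2+/+ and Tet2-/- was 2.35 and 2.50 points as a mean over genes, 2.94 and 2.63 at equal CpG density, and 3.09 and 2.74 at equal density and flanking bases, the last chosen after seeing the data. Exon gain minus intron gain reversed to -0.129 with flanks of 200 bp, -0.305 at equal density and -0.346 at equal density and flanking bases. Genes with a changed exon-intron difference numbered 60 when only exons with the coordinates of a terminal exon were left out, 55 without the 20 bp of intron next to exons (both chosen after seeing the data), 22 with 200 bp flanks, 70 by edgeR's likelihood ratio test and 0 by limma, with library medians subtracted or not. With medians subtracted, limma called 3 genes in exons and 1 in introns, and the likelihood ratio test called 703 in introns. Exons differed from introns by at least 10 points in 1739 of the 3589 genes called. Leaving out 1 library gave 26 to 528 genes in exons, 4 to 714 in introns and 0 to 65 for the difference, lowest without library 24 in each. Reversed values were -2.63 in Zer1 and 9.61 in Sobp with wholly coding exons, and 3.99 in Ccdc124 with the looser terminal rule. Where the alternative did not itself remove CpGs or libraries, the cause was not tested. Depth of 3.0 to 5.27 calls per CpG limits single exons, some with under 10 calls. Libraries could not be paired across genotypes, which share no replicate numbers. Exons and introns were compared within each library.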
